A study of Homo sapiens with 12 samples.

Results

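Neuroendocrine cells store peptide hormones in dense-core granules, and 9 genes of this programme were followed in H520, an established human cell line that the labels call lung squamous cell carcinoma (LUSC). They were chosen by gene name as rows of an expression table of 58174 genes: CHGA, CHGB, SCG2, SCG3, SCG5, PCSK1, SYP, INSM1 and NEUROD1. Earlier results of these data were known when they were chosen. The poly(A) RNA of 12 libraries was sequenced, 3 in each of 4 groups: control cells, cells given 1 µM BLU9931 (an irreversible inhibitor of the receptor kinase FGFR4), cells given 1 µM palbociclib (an inhibitor of the kinases CDK4 and CDK6), and cells given both drugs at these doses (the combination). Treatment lasted 72 h. What was added to the control cells is not in the labels. Nor is it stated that replicates were grown separately, so p-values measure the spread between these libraries, which may be technical.

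The granins CHGA, CHGB and SCG2 are acidic proteins that aggregate with hormones and calcium in the trans-Golgi network and so help to form dense-core granules. SCG3 binds granins and cholesterol at the granule membrane, PCSK1 is a convertase that cuts prohormones inside the granule, and SCG5 (7B2) is the chaperone of the related convertase PCSK2. SYP (synaptophysin) is a membrane protein of small synaptic-like vesicles and a routine pathology marker of neuroendocrine tumours. INSM1 and NEUROD1 are transcription factors of the neuroendocrine lineage, and NEUROD1 expression defines one class of small cell lung cancer.

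RefSeq promoter sequences (GRCh38.p14) were at hand for 6 of the 9 genes. The 250 bases before the transcription start are printed for 4 of them: SCG5, which rose, SYP, which fell under palbociclib, and CHGA and PCSK1, which were near the limit of detection while carrying the CRE palindrome TGACGTCA that cyclic AMP responsive factors bind. CHGB, SCG2 and INSM1 had no entry. Capitals mark the CRE or its core TGACG, and the E-box CANNTG that factors such as NEUROD1 bind, on either strand. The windows, 5′ to 3′ on the strand of the gene, lie at chr15:32641460-32641709 (plus strand) for SCG5, chrX:49200194-49200443 (minus strand) for SYP, chr14:92922900-92923149 (plus strand) for CHGA and chr5:96433249-96433498 (minus strand) for PCSK1.
SCG5: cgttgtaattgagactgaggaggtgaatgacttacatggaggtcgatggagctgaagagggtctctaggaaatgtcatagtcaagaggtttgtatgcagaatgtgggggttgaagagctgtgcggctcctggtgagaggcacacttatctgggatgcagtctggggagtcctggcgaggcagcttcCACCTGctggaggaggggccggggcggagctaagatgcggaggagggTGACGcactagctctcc
SYP: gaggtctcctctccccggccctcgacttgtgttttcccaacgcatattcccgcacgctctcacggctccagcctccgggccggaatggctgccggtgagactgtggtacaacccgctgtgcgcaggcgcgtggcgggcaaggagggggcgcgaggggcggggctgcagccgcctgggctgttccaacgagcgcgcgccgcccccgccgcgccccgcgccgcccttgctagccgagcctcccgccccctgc
CHGA: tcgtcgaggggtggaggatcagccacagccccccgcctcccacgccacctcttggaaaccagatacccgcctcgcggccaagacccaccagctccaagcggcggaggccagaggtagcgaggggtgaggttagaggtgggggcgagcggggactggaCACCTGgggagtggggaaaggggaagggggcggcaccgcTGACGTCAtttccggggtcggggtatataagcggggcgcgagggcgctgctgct
PCSK1: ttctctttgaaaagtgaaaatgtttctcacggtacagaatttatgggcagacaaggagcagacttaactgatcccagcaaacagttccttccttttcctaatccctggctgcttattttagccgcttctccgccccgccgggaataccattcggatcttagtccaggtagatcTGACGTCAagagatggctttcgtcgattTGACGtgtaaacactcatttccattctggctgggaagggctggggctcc

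In windows that also include the first 50 transcribed bases, the full CRE was in 2 of the 6 promoters (CHGA, from 54 bases before the start, and PCSK1, from 77 bases before it), against 1.85% of 35116 promoters of the same length. The core TGACG, which the full CRE contains, was in 5 of the 6 (all but SYP), against 24.6%. SCG5 had 1 such core, from 17 bases before the start, and 1 E-box, from 64 bases before it. An E-box was in 3 of the 6 promoters (SCG5, SCG3 and CHGA), against 68.7%. The neuronal silencer RE1, which the repressor REST binds, was searched by its arms TTCAGCACC and GGACAG. SCG3 held both, from 8 and 25 bases after the start, and none of the other 5 held either arm. The arms were searched separately, on either strand and with no set spacing. Holding both is therefore not a match to the full RE1. These arms were in 0.376% and 20.5% of all promoters. The E2F forms TTTCCCGC (1.63%) and TTTGGCGC (0.652%), and TATAAA (11.5%), were in none of the 6. A match describes the letters only and is not a measured site.

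The control libraries placed CHGB far above the other 8 genes. In deposited TPM (transcript abundance that takes gene length into account, scaled to the same sum in every library), CHGB (ENSG00000089199, GRCh38 chromosome 20, 5911430 to 5925361) was at 279 ± 11.1 (SD, n = 3) in control, rank 338 of 19762 protein-coding genes. INSM1 (ENSG00000173404, chromosome 20, 20368121 to 20370949) followed at 14.8 ± 0.894 TPM. SCG2 (3.39 ± 0.377), SYP (2.96 ± 0.804) and SCG5 (2.83 ± 0.215) came next, and their order was within their spread. CHGA, the most used serum and tissue marker of the family, was at 0.435 ± 0.322 TPM and SCG3 at 0.229 ± 0.00609. PCSK1 was at 0.0253 ± 0.0228 TPM, and NEUROD1 was at a count of 0 in all 3 control libraries. CHGB made up between 91.1% and 95% of the summed TPM of the 9 genes in every library.

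Whether the cells carry their labelled identity was checked with marker genes. Of 13 squamous markers, 7 reached 1 TPM in at least 1 library. SOX2 stood at 342 to 443 TPM, but the squamous regulator TP63 did not exceed 0.165 TPM, KRT5 did not exceed 1.31, KRT14 did not exceed 0.0654, and KRT17 and KRT6B had a count of 0 in all 12 libraries. TP63, KRT14, KRT17 and KRT6B were thus at or near 0. KRT5 had group means of 0.078 TPM in control, 0.182 with BLU9931, 0.801 with palbociclib and 0.249 with the combination. KRT15 (2.50 to 14.9 TPM), TRIM29 (2.25 to 6.33) and DSC3 (1.52 to 3.22) were above 1 TPM in every library, and SERPINB5 reached 2.88. KRT15 had group means of 3.30 TPM in control, 3.56 with BLU9931, 11.4 with palbociclib and 13.0 with the combination. The list summed, mostly through SOX2, to 355 to 393 TPM in control and 419 to 467 in the treated libraries. In the markers of other cells, PTPRC, the pan-leukocyte gene, had a count of 0 in 11 of 12 libraries and TYROBP in all 12. The 6 leukocyte markers summed to 0.670 to 1.14 TPM in control, 0.678 to 1.31 with BLU9931, 2.32 to 3.02 with palbociclib and 3.95 to 4.62 in the combination. LYZ, the lysozyme gene, carried the higher sums, with group means of 0.297, 0.680, 2.01 and 3.35 TPM in that order, while CD68 had means of 0.553, 0.256, 0.628 and 0.870 TPM. COL3A1 was at a count of 0 in 9 libraries and DCN in 10, and the 6 fibroblast markers summed to 1.97 to 4.69 TPM in control, 5.30 to 5.52 with BLU9931, 2.35 to 3.65 with palbociclib and 1.45 to 3.13 with the combination. The 6 lung glandular markers summed to 3.48 to 9.74 TPM in control, 9.83 to 11.6 with BLU9931, 11.4 to 16.5 with palbociclib and 8.83 to 10.7 with the combination. NKX2-1 led this list, and SLC34A2 went from a mean of 0.569 TPM in control to 4.19 with palbociclib and 2.06 with the combination. The part of these genes in the results below was not tested. In bulk RNA, fewer cells with a transcript and less of it per cell cannot be told apart.

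Libraries held 21730722 to 35786607 counts. Control 1 and palbociclib 3 stood apart. There, departures from the mean of the other libraries of the group tracked GC content across genes (Spearman's rho -0.662 and -0.730). In the other 10 libraries rho was -0.243 to 0.595. Control 2 and 3 were at 0.475 and 0.525, and palbociclib 1 and 2 at 0.595 and 0.530. The means they were set against include control 1 or palbociclib 3. INSM1 (63.1% GC in its longest transcript), CHGA (62.4%) and SYP (58.9%) were more GC-rich than 93.6%, 92.3% and 83.5% of tested genes. CHGB (52.3%), SCG5 (46.5%), SCG2 (43.0%) and SCG3 (41.9%) were not far from the middle or on the AT-rich side. The edgeR quasi-likelihood test was run over 20612 genes, with an adjusted p under 0.05 as threshold. It included 7 of the 9 genes, while PCSK1 and NEUROD1 fell under the filter on low counts.

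**Figure D1:**
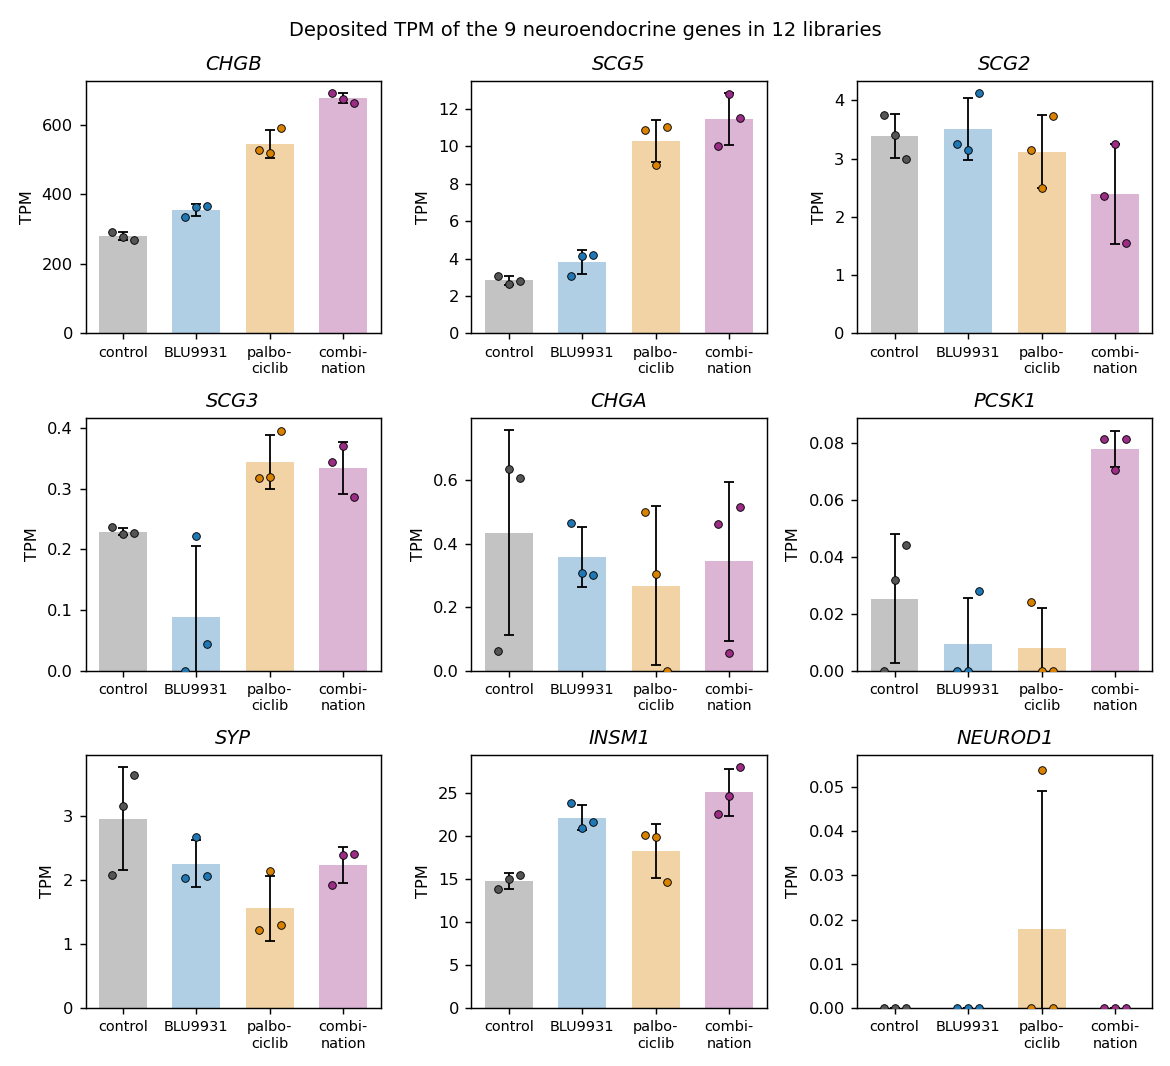
Deposited TPM (vertical axes, linear, each from 0) of the 9 genes in the 4 groups. Points are libraries, bars are means and error bars are SD (n = 3). CHGB stood between 269 and 291 TPM in control and between 662 and 691 TPM in the combination, while NEUROD1 was above 0 in 1 library.

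CHGB, SCG5 and INSM1 were higher after the combination than in control, and CHGB and SCG5 also after palbociclib alone. SYP was lower after palbociclib. The calls of INSM1 and SYP did not hold in every alternative setting, as given below. CHGA, SCG2 and SCG3 passed in no comparison with control. Under palbociclib, 2 of the 7 tested genes rose and 1 fell, where 20.6% of all tested genes were called (10% higher, 10.5% lower). Under the combination 3 rose and none of the 7 fell, where 31.7% were called (15.4% higher). The median log2 change of the 7 genes was 0.24 under palbociclib and 0.50 under the combination, against 0.01 and 0.03 for all tested genes. With 7 genes each median is the value of 1 gene, INSM1 under palbociclib and SCG3 under the combination. Neither was called there, so the medians do not show a shift of the set. In CPM (each count over the TMM-scaled depth of its library), the libraries did not overlap with control for 4 of the 7 under palbociclib (CHGB, SCG5 and SCG3 higher, SYP lower), where 32% of all tested genes did not overlap. They did not overlap for 4 under the combination (CHGB, SCG5, INSM1 and SCG3, all higher), where 48.4% did not.

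CHGB, the chromogranin B gene, was measured at 291, 277 and 269 TPM in control 1, 2 and 3. The BLU9931 libraries held 336, 363 and 366 TPM, the palbociclib libraries 526, 518 and 589 TPM, and the combination libraries 691, 673 and 662 TPM. No library of one group overlapped with another group. With palbociclib it rose 1.88-fold (log2 change 0.91 ± 0.08, SE, edgeR adjusted p = 3.42e-05), and with the combination 2.34-fold (1.23 ± 0.08, adjusted p = 1.2e-06). By its mean TPM it moved from rank 338 to rank 108 among protein-coding genes.

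SCG5 (ENSG00000166922, chromosome 15, 32641676 to 32697098), the chaperone whose promoter is printed above, had the largest fold of the 7 under palbociclib and under the combination. It was at 3.05, 2.62 and 2.81 TPM in control and 3.09, 4.15 and 4.19 TPM with BLU9931. The palbociclib libraries held 10.8, 9.01 and 11 TPM and the combination libraries 10.0, 12.8 and 11.5 TPM. All 6 libraries with palbociclib lay above all 6 without it. The rise was 3.42-fold with palbociclib (1.77 ± 0.24, edgeR adjusted p = 0.000397) and 3.76-fold with the combination (1.91 ± 0.24, 0.000104). These values rest on 37 to 192 counts per library. An antisense gene, AC123768.1, overlaps SCG5 and had at most 5 counts. PCSK2, the convertase that SCG5 assists, had 0 to 2 counts in every library.

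INSM1, a zinc-finger factor that drives neuroendocrine differentiation, was at 13.8, 15.1 and 15.5 TPM in control. It was at 23.9, 21.0 and 21.7 TPM with BLU9931, at 20.2, 19.9 and 14.6 TPM with palbociclib, and at 22.6, 24.7 and 28.0 TPM with the combination. The BLU9931 and combination libraries lay above all control libraries, and palbociclib 3 lay among the controls. With the combination it rose 1.63-fold (0.71 ± 0.14, edgeR adjusted p = 0.00269). That call held with control 1 and palbociclib 3 left out (0.65, adjusted p = 0.000713), but not after a GC adjustment (0.33, adjusted p = 0.175), which also takes out a GC trend that follows the groups. With palbociclib the change was 0.24 ± 0.14 (adjusted p = 0.265), and without palbociclib 3 it was 0.36 (0.0485).

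SYP (ENSG00000102003, chromosome X, 49187804 to 49200259) was at 2.07, 3.16 and 3.64 TPM in control and 2.02, 2.68 and 2.06 TPM with BLU9931. Palbociclib libraries held 1.22, 2.14 and 1.29 TPM and combination libraries 1.91, 2.39 and 2.40 TPM. In TPM palbociclib 2 lay above control 1, whereas in CPM the palbociclib libraries (1.25 to 2.52) lay below the control libraries (2.68 to 3.96). SYP fell by 0.87 ± 0.25 on the log2 scale under palbociclib (edgeR adjusted p = 0.0303). The call ended with library totals in place of TMM (-0.80, adjusted p = 0.0509), with no filter on low counts (-0.87, 0.0551), and without control 2 (0.0760), control 3 (0.110), palbociclib 1 (0.0975) or palbociclib 3 (0.0626). It held with control 1 and palbociclib 3 both left out (-0.82, 0.0258). Under the combination the change was -0.43 ± 0.25 (0.218), and after the GC adjustment -0.65 (0.00996). The overlapping gene SYP-AS1 had at most 4 counts.

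No other granin was called against control. SCG2 (ENSG00000171951, chromosome 2, 223596940 to 223602503), the precursor of the peptide secretoneurin, was at 3.75, 3.41 and 3.0 TPM in control and 3.25, 3.15 and 4.13 TPM with BLU9931. Palbociclib libraries held 3.14, 2.49 and 3.73 TPM, and combination libraries 2.36, 3.26 and 1.55 TPM. All groups overlapped with control. The log2 change under the combination was -0.53 (95% interval -1.09 to 0.03, edgeR adjusted p = 0.140), and without combination 2 it was -0.81 (adjusted p = 0.0404).

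CHGA (ENSG00000100604, chromosome 14, 92923080 to 92935293) had 2, 19 and 23 counts in control, 12, 10 and 9 with BLU9931, 15, 8 and 0 with palbociclib, and 11, 2 and 17 with the combination. Its lowest libraries were palbociclib 3, control 1 and combination 2. At this depth the interval of its log2 change under the combination ran from -2.24 to 1.58, so neither a rise nor a fall of 2-fold could be told from no change. SCG3 (ENSG00000104112, chromosome 15, 51681353 to 51721031) had 12, 12 and 15 counts in control and 0, 12 and 2 with BLU9931. It had 17, 14 and 18 counts with palbociclib and 14, 19 and 16 with the combination. In CPM the palbociclib and combination libraries (0.524 to 0.727) lay above the control libraries (0.415 to 0.447), with log2 changes of 0.52 ± 0.58 (adjusted p = 0.582) and 0.50 ± 0.58 (0.544).

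PCSK1 (ENSG00000175426, chromosome 5, 96390415 to 96434143), whose promoter carries the CRE, had 0, 3 and 5 counts in control, 0, 0 and 2 with BLU9931, 2, 0 and 0 with palbociclib, and 5, 6 and 7 with the combination. The gene was not tested, and these counts are too few for a fold. The promoter window printed for PCSK1 follows the RefSeq start. It lies wholly inside the span given here, downstream of the 5′ end of that span. NEUROD1 (ENSG00000162992, chromosome 2, 181673088 to 181680876) had 2 counts in palbociclib 2 and none in the other 11 libraries. A count of 0 allows up to 3 counts, or 0.0838 to 0.138 CPM of the library total, for counting error only. NEUROD1 and the same-strand gene CERKL (0 to 17 counts) overlap.

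**Figure D2:**
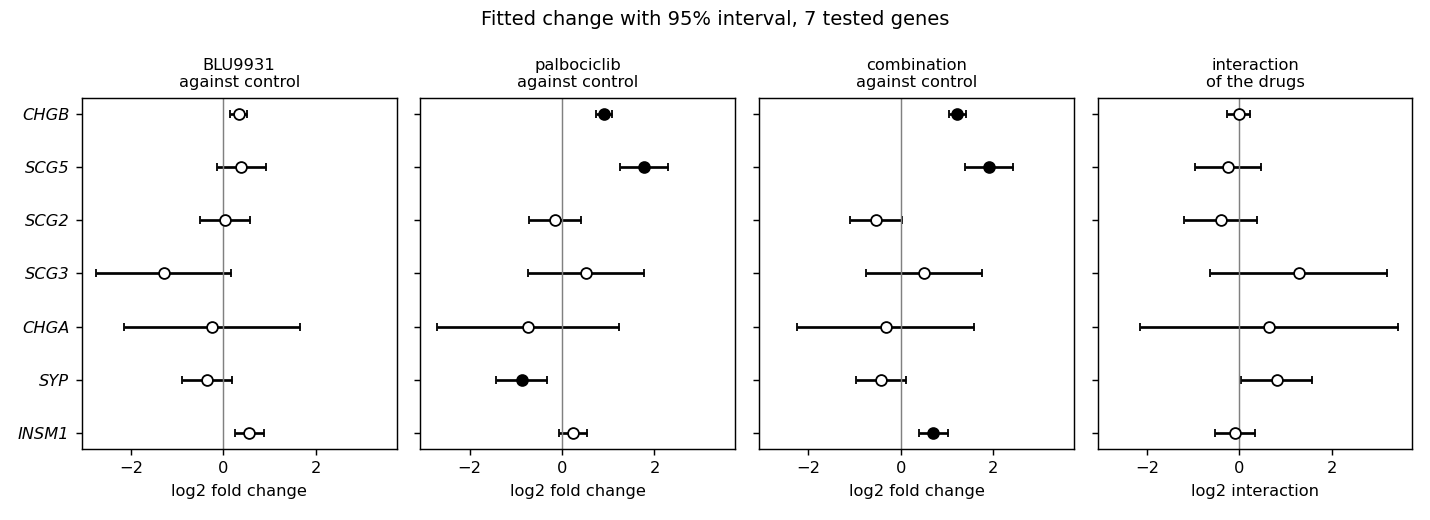
Log2 change (horizontal axes) of the 7 tested genes with 95% intervals from the edgeR fit, in 3 comparisons with control and in the interaction. Filled points passed an adjusted p under 0.05. The interaction of CHGB lies at -0.01 with an interval of -0.27 to 0.24, and the intervals of CHGA span several log2 units.

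BLU9931 alone was compared with control to see what this drug does without palbociclib. None of the 7 tested genes passed in edgeR, where 0.18% of all tested genes were called (0.141% higher, 0.0388% lower). An unadjusted p under 0.05 was found for 2 of the 7 and for 16.2% of all tested genes. With 7 genes such a share allows no reading of the count. CHGB was 1.26-fold higher (0.33 ± 0.08, unadjusted p = 0.00193, edgeR adjusted p = 0.137) and INSM1 1.48-fold higher (0.56 ± 0.14, unadjusted p = 0.00195, adjusted p = 0.137), with all 3 BLU9931 libraries above all 3 controls for both. Of all tested genes, 31.6% did not overlap between these groups. Both genes passed without palbociclib 3 (CHGB adjusted p = 0.0359, INSM1 0.0353), without both control 1 and palbociclib 3 (0.0145 and 0.0343) and in DESeq2 (0.0254 and 0.0139). After the GC adjustment INSM1 was at 0.12 (adjusted p = 0.781) and CHGB at 0.27 (0.190). SCG5 (0.39 ± 0.24, adjusted p = 0.421) and SYP (-0.36 ± 0.25, 0.470) were not past the threshold, nor were SCG3 (-1.30 ± 0.67, 0.349), SCG2 (0.03, 0.955) and CHGA (-0.24, 0.899).

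Setting the combination against palbociclib shows what changed when BLU9931 was added. None of the 7 passed in edgeR, where 3.82% of all tested genes were called (0.917% higher, 2.91% lower). An unadjusted p under 0.05 was found for 2 of the 7 and for 15.5% of all tested genes. CHGB was 1.24-fold higher (0.32 ± 0.08, unadjusted p = 0.0025, edgeR adjusted p = 0.0587). It passed with library totals (adjusted p = 0.0325), in DESeq2 (0.0243), without palbociclib 3 (0.0129) and without both control 1 and palbociclib 3 (0.00186). INSM1 was 1.38-fold higher (0.47 ± 0.14, unadjusted p = 0.00619, adjusted p = 0.105) and passed in DESeq2 (0.0373). For both genes all 3 combination libraries lay above the palbociclib libraries, where 21.6% of all tested genes did not overlap. SCG5 differed by 0.14 (interval -0.35 to 0.62), SYP by 0.45 (-0.11 to 1.01) and SCG2 by -0.37 (-0.94 to 0.19).

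The combination was then compared with BLU9931, the effect of palbociclib on top of the FGFR4 inhibitor. CHGB rose 1.86-fold (0.90 ± 0.08, edgeR adjusted p = 1.33e-05) and SCG5 2.87-fold (1.52 ± 0.23, 0.000582). These 2 of the 7 genes were called, where 27% of all tested genes were called (13.3% higher). INSM1 differed by 0.15 (interval -0.16 to 0.45). SCG3 was higher by 1.80 ± 0.65 (adjusted p = 0.0618), where the BLU9931 libraries held 0, 12 and 2 counts, and by 3.75 (0.00233) without BLU9931 2. It passed in DESeq2 (0.0188), on both log2 TPM scales (0.0279 and 0.0209) and after the GC adjustment (0.0494). SCG2 differed by -0.56 ± 0.26 (0.131), and it passed after the GC adjustment (-0.65, 0.0254) and without combination 2 (-0.86, 0.0388). By CPM 4 of the 7 did not overlap between these groups (3 higher, 1 lower), where 52.6% of all tested genes did not.

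The interaction tests whether the log2 effect of both drugs differs from the sum of their single effects. None of the 7 passed in edgeR, where 1.59% of all tested genes were called (0.281% higher, 1.31% lower). It was -0.01 for CHGB (interval -0.27 to 0.24), -0.25 for SCG5 (-0.97 to 0.46) and -0.09 for INSM1 (-0.53 to 0.34). SYP was the only one under 0.05 before adjustment (0.81 ± 0.36, unadjusted p = 0.0436, edgeR adjusted p = 0.335), 1 of 7 where 14.2% of all tested genes were under 0.05. It passed after the GC adjustment (0.95, 0.0390). SCG3 (1.29, adjusted p = 0.552), CHGA (0.65, 0.867) and SCG2 (-0.41, 0.659) were not past the threshold. The comparisons with control share the control libraries, so they are not independent of each other.

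Other genes of the pathway were taken from 6 companion lists. Their counts stand against 20.6% of all tested genes called under palbociclib and 31.7% under the combination. The lists were chosen with earlier results of these data known, so these shares describe the lists and do not test them. Of 14 genes of granins and prohormone processing, 13 were tested. Under palbociclib 3 rose: PAM, which amidates peptide ends (11.3 ± 2.02 to 19.1 ± 2.39 CPM, SD, n = 3), QPCT, which cyclizes N-terminal glutamine, and the convertase PCSK4. Under the combination PAM, FURIN and PCSK4 rose, and the convertases PCSK5 (-0.63 ± 0.12) and PCSK6 (-0.54 ± 0.12) and the nucleobindin gene NUCB2 fell. These calls are 23.1% and 46.2% of the tested list, and the medians were 0.31 and 0.21. The palbociclib call of PCSK4 ended when any library but palbociclib 3 was left out (adjusted p up to 0.150), without the filter on low counts (0.0712) and with the replicate numbers as a block (0.0819). Calls under palbociclib numbered 6 without palbociclib 3 (5 higher), 8 without control 1 and palbociclib 3 (6 higher), 5 in DESeq2 and 7 after the GC adjustment, in place of 3. Under the combination 3 were called without combination 3 (1 higher), in place of 6. CPE, the carboxypeptidase that trims hormone ends, was at 22.5 ± 3.44 CPM in control and 27.9 ± 3.45 with palbociclib (adjusted p = 0.186). Compared with palbociclib, CPE fell by 0.66 ± 0.16 in the combination (0.0382), a result singled out after its values were seen.

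Of 44 genes of the granule membrane, docking and release, 33 were tested, of which 7 rose and 4 fell under palbociclib and 8 rose and 7 fell under the combination. These calls are 33.3% and 45.5% of the tested list, against 20.6% and 31.7% of all tested genes, and the medians were 0.10 and 0.13. CADPS, which primes dense-core granules for fusion, went from 47.3 ± 3.57 to 117 ± 2.21 CPM with palbociclib (1.3 ± 0.09, edgeR adjusted p = 8.09e-06) and 108 ± 1.90 CPM with the combination. SLC18A2, the vesicular monoamine transporter that loads granules with amines, went from 4.99 ± 2.02 CPM to 55.9 ± 5.17 with palbociclib and 22.2 ± 2.74 with the combination. The difference between these was a fall by 1.33 ± 0.23 (log2, adjusted p = 0.00662). SV2B, a vesicle membrane glycoprotein, went from 1.37 ± 0.169 to 8.11 ± 3.03 and 9.19 ± 0.786 CPM. The other rises under palbociclib were UNC13B (0.60, edgeR adjusted p = 0.00596), ICA1 (0.65, 0.00204), SYT11 (0.40, 0.0084) and SYN2 (0.42, 0.022). The falls under palbociclib were SNAP25, RAB27A, RIMS2 and SYTL4, and all 4 also fell under the combination. SNAP25 was low throughout, at 1.52 ± 0.56 CPM in control and 0.565 ± 0.423 with palbociclib (adjusted p = 0.0393). Genes of docking and release thus went in both directions. Without palbociclib 1 or palbociclib 2, 7 of this list were called under palbociclib in place of 11, and the GC adjustment gave 24 in place of 15 under the combination.

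Of 35 transcription factors of neuroendocrine and neuronal lineages, 21 were tested. Under palbociclib 4 rose, MYCL among them, and 6 fell, and under the combination 3 rose, MYCL among them, and 8 fell. These calls are 47.6% and 52.4% of the tested list, and the medians were -0.19 and -0.52. ONECUT2, a homeodomain factor, went from 36.8 ± 5.09 to 13.8 ± 2.68 CPM with palbociclib and 11.8 ± 1.01 with the combination, and PAX6 went from 17.8 ± 1.06 to 5.27 ± 0.387 CPM with the combination. Without palbociclib 1, 6 factors were called under palbociclib in place of 10.

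Of 17 repressors of neuronal genes, all tested, HEY1 (a NOTCH target) rose and ID4 fell under palbociclib. HEY1 rose and RCOR2 (a REST corepressor), HDAC1 and HDAC2 fell under the combination. These calls are 11.8% and 23.5% of the list, and the medians were -0.05 and 0.07. Under palbociclib 5 of this list were called without palbociclib 3, 6 without control 1 and palbociclib 3, 4 in DESeq2 and 7 after the GC adjustment, in place of 2. Under the combination 2 were called without control 1 or without any single combination library, and 8 were called without control 1 and palbociclib 3 and 8 after the GC adjustment, in place of 4. The ID4 call ended without control 1, BLU9931 3, palbociclib 1 or palbociclib 2 (adjusted p 0.0610 to 0.120), with library totals (0.0567), without the filter on low counts (0.0656), with the replicate numbers as a block (0.0602) and on both log2 TPM scales (0.0697 and 0.0696), 9 of 20 settings in all. The HDAC2 call ended without control 1 or any combination library (0.0574 to 0.107) and with the block (0.0523). REST itself was at 80.3, 61.7 and 10.2 CPM in control 1, 2 and 3 and between 56.0 and 78.4 CPM in the other 9 libraries. It was not called (0.33 ± 0.49, adjusted p = 0.686, and 0.54 ± 0.49, 0.438). Control 3, the low library, held 269 TPM of CHGB against 277 and 291 in the other controls. Whether REST has a part in the level of CHGB was not tested.

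Of 28 genes of peptide hormones and amine synthesis, 10 were tested, and 1 rose and 2 fell in both comparisons, or 30% of the tested list against 20.6% and 31.7% of all tested genes. PENK, the enkephalin precursor, rose from 6.47 ± 2.01 to 15.4 ± 7.12 CPM with palbociclib (edgeR adjusted p = 0.0353) and 16.9 ± 5.72 with the combination (0.0151). With BLU9931 it was at 16.9 ± 4.63 CPM (log2 change 1.38 ± 0.37, adjusted p = 0.155), and the combination differed from BLU9931 by -0.0045. The palbociclib call ended without any 1 of 7 libraries (control 1 or 2, BLU9931 1 or 2, palbociclib 1 or 2, combination 3, adjusted p 0.0503 to 0.171), without the filter on low counts (0.0575) and without control 1 and palbociclib 3 together (0.0753). The combination call ended without control 1 or 2 or combination 2 or 3 (0.0548 to 0.0636), or without control 1 and palbociclib 3 together (0.0621). GAL, the galanin precursor, went from 39.4 ± 10.4 to 12.5 ± 4.54 and 8.10 ± 1.54 CPM, and NMU, the neuromedin U precursor, from 11.6 ± 1.20 to 5.55 ± 0.690 and 1.60 ± 0.226 CPM. The medians of the peptide list were -0.03 and -0.11. Of 21 other markers, 18 were tested, of which 2 rose and 1 fell under palbociclib and 3 rose and 8 fell under the combination (16.7% and 61.1% of the tested list, medians -0.06 and -0.38). SEZ6L2, a neuronal surface protein, went from 41.3 ± 12.5 to 146 ± 48.9 and 165 ± 13.3 CPM, and with BLU9931 it was at 64.0 ± 4.88 CPM (adjusted p = 0.282). NCAM1 (CD56), a pathology marker of neuroendocrine tumours, went from 46.4 ± 6.10 to 13.4 ± 3.93 CPM with palbociclib (-1.79 ± 0.25, adjusted p = 0.000576) and 10.6 ± 2.48 with the combination (-2.12 ± 0.25, 8.32e-05). GAP43, a growth cone protein, rose in both comparisons, and its palbociclib call ended without control 1, control 3, palbociclib 1 or palbociclib 3 (0.0516 to 0.0855), without control 1 and palbociclib 3 together (0.110), without the filter on low counts (0.0507) and with the replicate numbers as a block (0.0605). Under the combination UCHL1 rose, and SEZ6, ENO2, SSTR2, SEZ6L, RET, CHRNA3 and KCNC1 fell. Without combination 1, 7 of this list were called in place of 11, and after the GC adjustment 5 in place of 3 under palbociclib. Under BLU9931 none of the 112 tested genes of the 6 lists passed in edgeR, where 0.18% of all tested genes did, so the count says nothing particular about the lists.

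**Figure D3:**
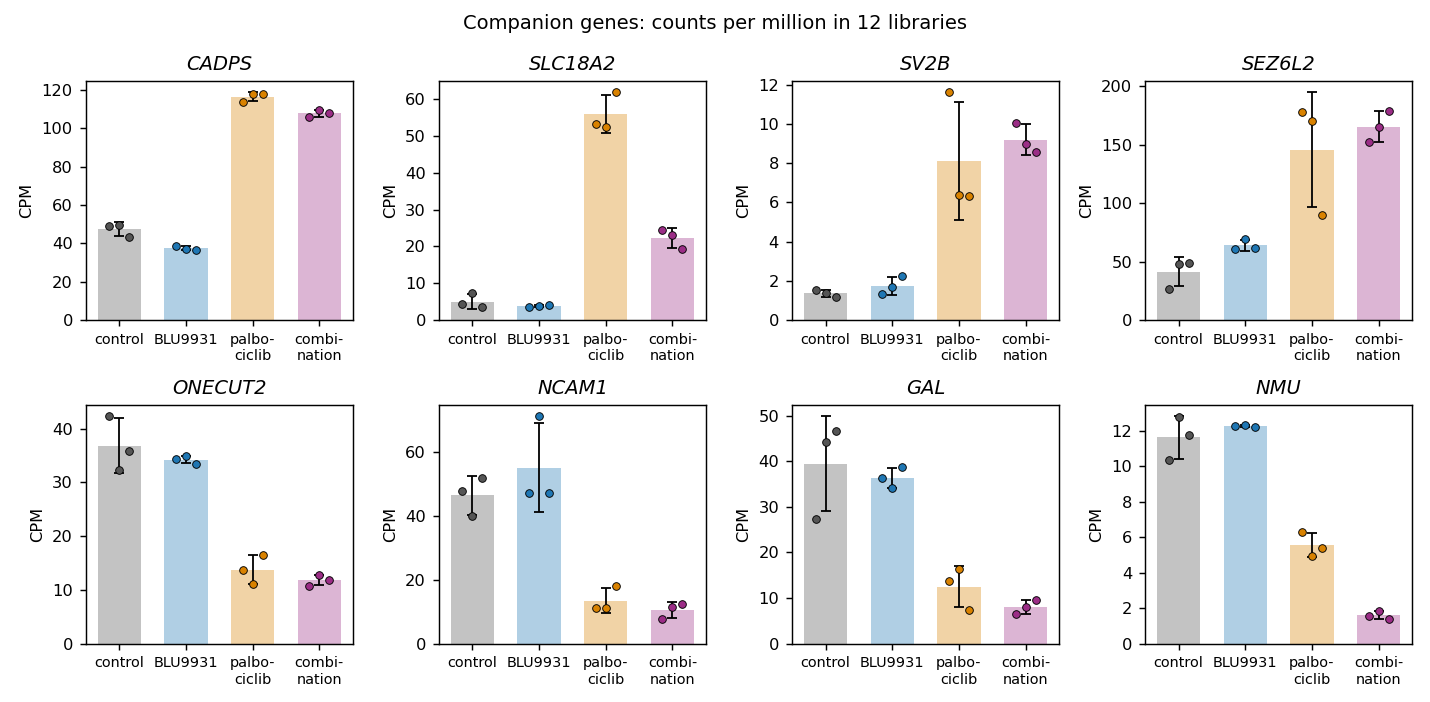
CPM (vertical axes, linear, each from 0) of 8 companion genes, picked for display after their values were seen. Points are libraries, bars are means and error bars are SD (n = 3). CADPS, SLC18A2, SV2B and SEZ6L2 are higher in the libraries with palbociclib, and ONECUT2, NCAM1, GAL and NMU are lower.

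**Figure D4:**
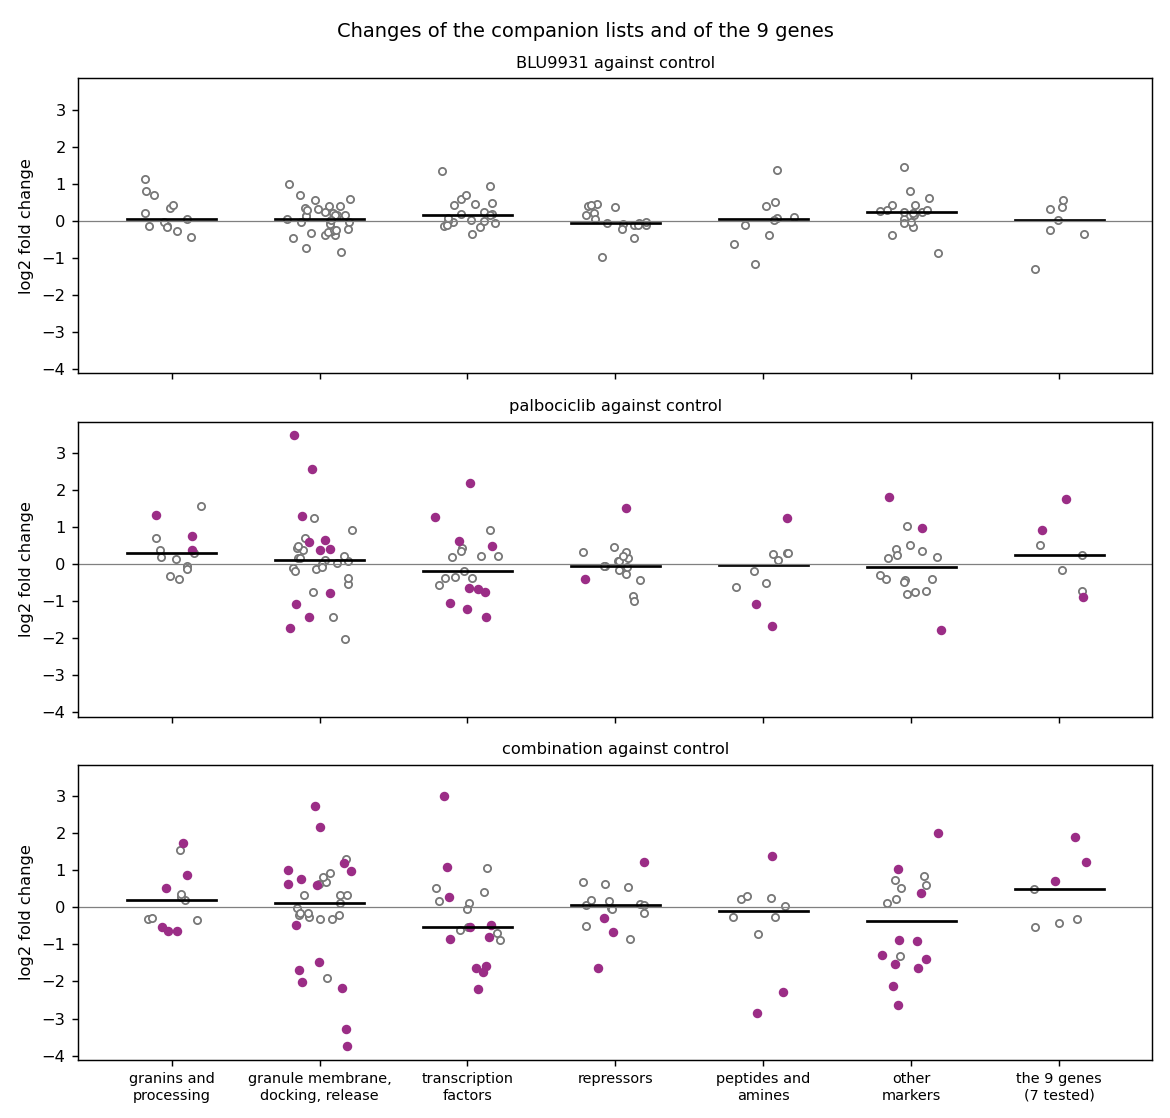
Log2 change against control (vertical axes) of each tested gene of the 6 companion lists and of the 9 genes, under BLU9931, palbociclib and the combination from top to bottom. Filled points passed an adjusted p under 0.05 and black lines are medians. Filled points lie on both sides of 0 in each companion list under palbociclib and under the combination, except the granin list under palbociclib.

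Profiles over the 12 libraries were compared by Pearson's r of log2 CPM among 14579 other protein-coding genes, as a description of libraries that share groups and depth. The genes most like CHGB were SLC2A12 (r = 0.986), ZFYVE1 (0.986) and HIST1H3E (0.981). For SCG5 they were PNRC1 (0.974) and TM4SF1 (0.972), and for INSM1 TMEM261 (0.977), TRPM4 (0.967) and DYNLRB1 (0.966). Those of SYP were DNTTIP1 (0.953), SLC3A2 (0.939) and ATP5B (0.934), and those of SCG2 SLC35F4 (0.889), RNF34 (0.879) and GHR (0.878). Between the genes themselves, CHGB and SCG5 had r = 0.963 over the libraries and 0.733 for deviations from the group mean. CHGB and INSM1 had r = 0.518 over the libraries but -0.815 for deviations from the group mean, in which control 1 and palbociclib 3 carried the lowest INSM1 and the highest CHGB of their groups.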

How the data were processed

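Poly(A) RNA of H520 cells was measured in 12 libraries. The deposited table gives counts, TPM and FPKM per gene, named so per the file headers. The FPKM values deposited by the authors were not used. Trimmomatic 0.36, HISAT2 2.0, bedtools 2.26.0 and StringTie 1.3.3b are named, with a mouse build, in the submitters' processing notes. Which tool did what, the annotation and the strand setting are not given in the sources used here. Of the 58174 human IDs, 57836 are in GENCODE 29 (GRCh38), where all 9 genes have the same start and end. There were 0 columns of samples outside the series.

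Counts were filtered (filterByExpr, 20612 genes left), scaled by TMM and fitted with edgeR 4.0.16 (R 4.3.3, glmQLFit, robust, 8 residual degrees of freedom) in 1 model of all 12 libraries and 4 group means. For 6 contrasts, p-values came from a two-sided quasi-likelihood F-test, with Benjamini-Hochberg adjustment over all tested genes. The SE of a log2 change is its size over the root of F, intervals are 95%, and CPM are counts over library size times TMM factor. DESeq2 1.42.0 and limma 3.58.1 (log2 of deposited TPM plus 1 or 0.1) were alternatives. So were library totals, no filter, a replicate block and leaving libraries out. The fit was also run on simulated counts, which gave all genes the same dispersion and held no GC trend. That run does not bear on calls that depend on control 1 or palbociclib 3. GC content is that of the longest GENCODE 29 transcript, and the GC adjustment (lowess, span 0.3, offset per library) was chosen after seeing the data. Tables and plots used Python 3.11.15, pandas 2.3.3 and matplotlib 3.10.9. Named companions were up to 3 genes per list with the smallest adjusted p past the threshold under palbociclib or the combination; names beyond these were given after values were seen, where counts were small. Some genes that the rules would name are not reported here. Members and lists were chosen with earlier results of these data known.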

Additional observations from a re-analysis of the deposited data

How the results depend on the processing

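Over 20 alternative settings for 7 genes and 6 comparisons (840 values), 790 kept their direction and side of the threshold, 7 lost and 22 gained a call, and 21 changed sign. The rises of CHGB and SCG5 with palbociclib and with the combination held in all 20. The number of the 7 genes called under BLU9931 (0) was 2 in DESeq2, 2 without control 1 and palbociclib 3 together, and 0 to 2 with a library left out. For the combination against palbociclib (0) it was 1 with library totals, 2 in DESeq2, 1 with control 1 and palbociclib 3 left out, and 0 to 1 with a library left out. It was 4 in place of 2 against BLU9931, and 1 in place of 0 for the interaction, after the GC adjustment. For palbociclib it was 2 to 3, and for the combination against control 3 to 4, with a library left out. The cause of these shifts was not tested.

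The values that changed sign were never past the threshold on either side. CHGA under BLU9931 was 0.042 with log2(TPM + 0.1), and ran from -0.72 to 0.11 with a library left out. CHGA ran from -0.83 to 0.16 for the combination against control, -0.14 to 1.21 against palbociclib and -0.57 to 0.39 against BLU9931. With control 1 and palbociclib 3 left out, the combination against palbociclib was -0.14 for CHGA and 0.12 for SCG3, and the interaction of CHGB was 0.024. After the GC adjustment SCG3 was at 0.021 against palbociclib and the interaction of INSM1 at 0.15. With a library left out, SCG2 under BLU9931 ran from -0.042 to 0.12, SCG3 from -0.089 to 0.12 and SCG5 from -0.028 to 0.31 for the combination against palbociclib, SYP from -0.20 to 0.027 against BLU9931, and the interaction of CHGB from -0.074 to 0.062.

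The number of all genes called also moved. Under BLU9931 (37, with 29 higher) it was 590 in DESeq2 (296 higher), 667 after the GC adjustment (347 higher), 553 with control 1 and palbociclib 3 left out (293 higher), 17 without the filter, 22 on log2(TPM + 1) and 1 to 396 with a library left out. Palbociclib gave 7089 after the GC adjustment in place of 4236. The combination against palbociclib gave 1328 in DESeq2, 2043 with the 2 libraries left out (817 higher), 2256 after the GC adjustment and 438 to 945 with a library left out, in place of 788 (189 higher). Against BLU9931 it gave 8685 with the 2 libraries left out and 8388 after the GC adjustment, in place of 5572. The interaction gave 853 in DESeq2 (241 higher), 2117 with the 2 libraries left out (981 higher), 1720 after the GC adjustment (554 higher) and 148 to 986 with a library left out, in place of 328 (58 higher).

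No pairing of the libraries by replicate number was seen. Deviations from group means of the 18 same-numbered pairs correlated from -0.331 to 0.148, 3 of them over 0.1. Of 12 libraries, 4 correlated best with their own number. The departures of control 1 and palbociclib 3 enter these deviations, so a pairing could be missed. With the replicate block, all genes called fell to 2 under BLU9931, 483 for the combination against palbociclib and 142 for the interaction, and no call of the 7 genes changed. Depth limits CHGA, SCG3, PCSK1 and NEUROD1, with at most 23 counts in a library.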
